A study of Homo sapiens with 18 samples.

Results

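The 9 genes described here encode promoter factors that read 2 common sequence elements, the CCAAT box and the GC box, together with 2 factors that read CGCG-containing or methylated sites. They are the 3 subunits of the CCAAT-binding factor NFY (NFYA, NFYB and NFYC), the GC-box factors SP1, SP2, SP3 and SP4, and ZBTB33 and BANP. They were taken by gene symbol as 9 of the 58870 rows of the count table, and all 9 were among the 17743 genes with enough counts to be tested. NFYA entered the group because it was already known to be lower under the NRF1 guide in these data, so every value that sets the NRF1 guide against the intergenic guide is given for these genes as a description, without a test. The study asked how exon 7 of the transcription factor gene NRF1 affects gene expression. HEK293T cells, a transformed human embryonic kidney line, received a plasmid with a base editor, an enzyme that changes single bases without cutting both DNA strands, and a guide. What is called the NRF1 guide here stands for guides directed at the splice donor or acceptor sites of NRF1 exon 7, carried on different constructs. The intergenic guide stands for guides directed at a control region outside genes. Each of the 6 groups held 3 libraries: SaABE with the NRF1 guide (ABE8e adenine editor on nickase SaCas9), SaABE with the intergenic guide, SpABE with the NRF1 guide (ABE8e on nickase SpCas9), SpABE with the intergenic guide, SpCBE with the NRF1 guide (evoCDA1 cytosine editor on nickase SpCas9), and SpCBE with the intergenic guide. All 6 groups shared transfection of 750000 cells, 48 h of puromycin and lysis at 72 h. The controls therefore carried an active editor too. The SaABE plasmids had a pX462 backbone and the other plasmids a pX461 backbone, so the editor and the backbone cannot be told apart. The labels do not give the guide sequence or target site used with each editor. In every comparison between editors, the editor therefore cannot be told apart from the guide sequence and its site either. Each library is a bulk population of transfected cells, and the labels do not give the share of edited alleles.

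NFY is a trimer: NFYB and NFYC pair through histone-fold domains, and NFYA joins the pair and makes the base-specific contacts with CCAAT, so NFYA is the subunit that gives the complex its sequence preference. SP1 to SP4 share zinc fingers that bind the GC box, GGGCGG. SP1 is a broadly expressed activator, SP3 can activate or repress, SP4 is best known from neurons, and SP2 has been found with NFY at CCAAT promoters in mouse cells. ZBTB33, also called Kaiso, is a BTB zinc-finger protein that binds methylated CpG sites, and BANP binds an unmethylated palindrome called the CGCG element. NRF1, the factor whose gene was edited, binds GC-rich palindromes at many of the same CpG-island promoters.

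Libraries held between 28101094 and 40687447 estimated counts. Within groups, the libraries that differed most from each other were SaABE intergenic replicates 1 and 2. Values below are in CPM, a gene's counts relative to the TMM-scaled total of its library, unless another scale is named. Of the genes known from HEK293 cells, NEFL averaged 43.3 ± 3.41 CPM with the NRF1 guide and 55.7 ± 4.79 CPM with the intergenic guide (SD, n = 9 each) and fell by 0.36 on the log2 scale (adjusted p = 6.10e-11 over all editors), and KRT8 averaged 20.9 ± 2.76 CPM with the NRF1 guide and 23.1 ± 2.99 CPM with the intergenic guide and fell by 0.15 (adjusted p = 0.00325). VIM, KRT18, NEFM, PAX2 and L1CAM did not pass, with VIM at 709.7 ± 61.4 CPM with the NRF1 guide and 714 ± 49.6 CPM with the intergenic guide and PAX2 and L1CAM at 1.68 to 2.09 CPM. Markers of blood summed to 2.01 to 3.85 CPM, those of fibroblasts to 15.5 to 23.5 CPM, nearly all of it COL1A1, and those of endothelium to 0.102 to 0.408 CPM. Among blood markers PTPRC, CD3E and HBB stayed below 1 CPM in every library. A gene-level count adds all isoforms, so it cannot show whether exon 7 was present in NRF1 transcripts. NRF1 itself was at 40.3, 39.4 and 41 CPM in SaABE cells with the NRF1 guide, against 33.1, 32.1 and 31.5 CPM with the intergenic guide. In SpABE cells it was at 35.7, 37.5 and 41.6 CPM with the NRF1 guide, against 26.7, 28.8 and 28.5 CPM with the intergenic guide. In SpCBE cells it was at 38.3, 39.5 and 43.8 CPM with the NRF1 guide, against 24.4, 25.0 and 26.0 CPM with the intergenic guide. The groups did not overlap under any editor, and NRF1 transcripts rose by a log2 fold change of 0.49 (SE 0.045, quasi-likelihood test of edgeR, Benjamini-Hochberg adjusted p = 3.61e-09) over all editors.

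NFYA was the member that differed most between guides. SaABE cells with the NRF1 guide had 36.2, 39.1 and 34.7 CPM of NFYA, against 53.6, 56.4 and 55.2 CPM with the intergenic guide. SpABE cells with the NRF1 guide had 37.6, 37.8 and 36.2 CPM, against 62.0, 60.7 and 60.2 CPM with the intergenic guide. SpCBE cells with the NRF1 guide had 37.0, 37.0 and 37.1 CPM, against 57.0, 57.2 and 55.8 CPM with the intergenic guide. All 9 libraries with the NRF1 guide lay below all 9 libraries with the intergenic guide, and the 3 editors reached nearly the same level with the NRF1 guide although their controls were less alike. The mean was 37.0 ± 1.23 CPM with the NRF1 guide and 57.6 ± 2.80 CPM with the intergenic guide (SD, n = 9 each), which gave -0.64 on the log2 scale (SE 0.025, 95% interval -0.69 to -0.59). Within editors the log2 fold change was -0.59 for SaABE, -0.71 for SpABE and -0.61 for SpCBE. With 1 library left out it ran from -0.64 to -0.55 for SaABE, from -0.72 to -0.69 for SpABE and from -0.62 to -0.60 for SpCBE. Of all 17743 genes tested, 3.17% had a lower fold change than NFYA. NFYA counts ranged from 1044 to 2419 per library. In GENCODE 44, NFYA shares exon bases with ADCY10P1 on the same strand (262 and 250 bases in 2 entries of that name) and, on the opposite strand, with OARD1 (75 bases) and a lncRNA with no gene symbol (480 bases), whose level was not analysed here. ADCY10P1 had 4 to 38 estimated counts in a library and fell by 0.83 on the log2 scale (adjusted p = 0.00689, same test). OARD1 had 478 to 996 estimated counts and fell by 0.44 on the log2 scale (adjusted p = 2.27e-09, same test). The strand setting of the counting is not given in the sources used here, and the part of these neighbours in the NFYA value was not tested.

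**Figure D1:**
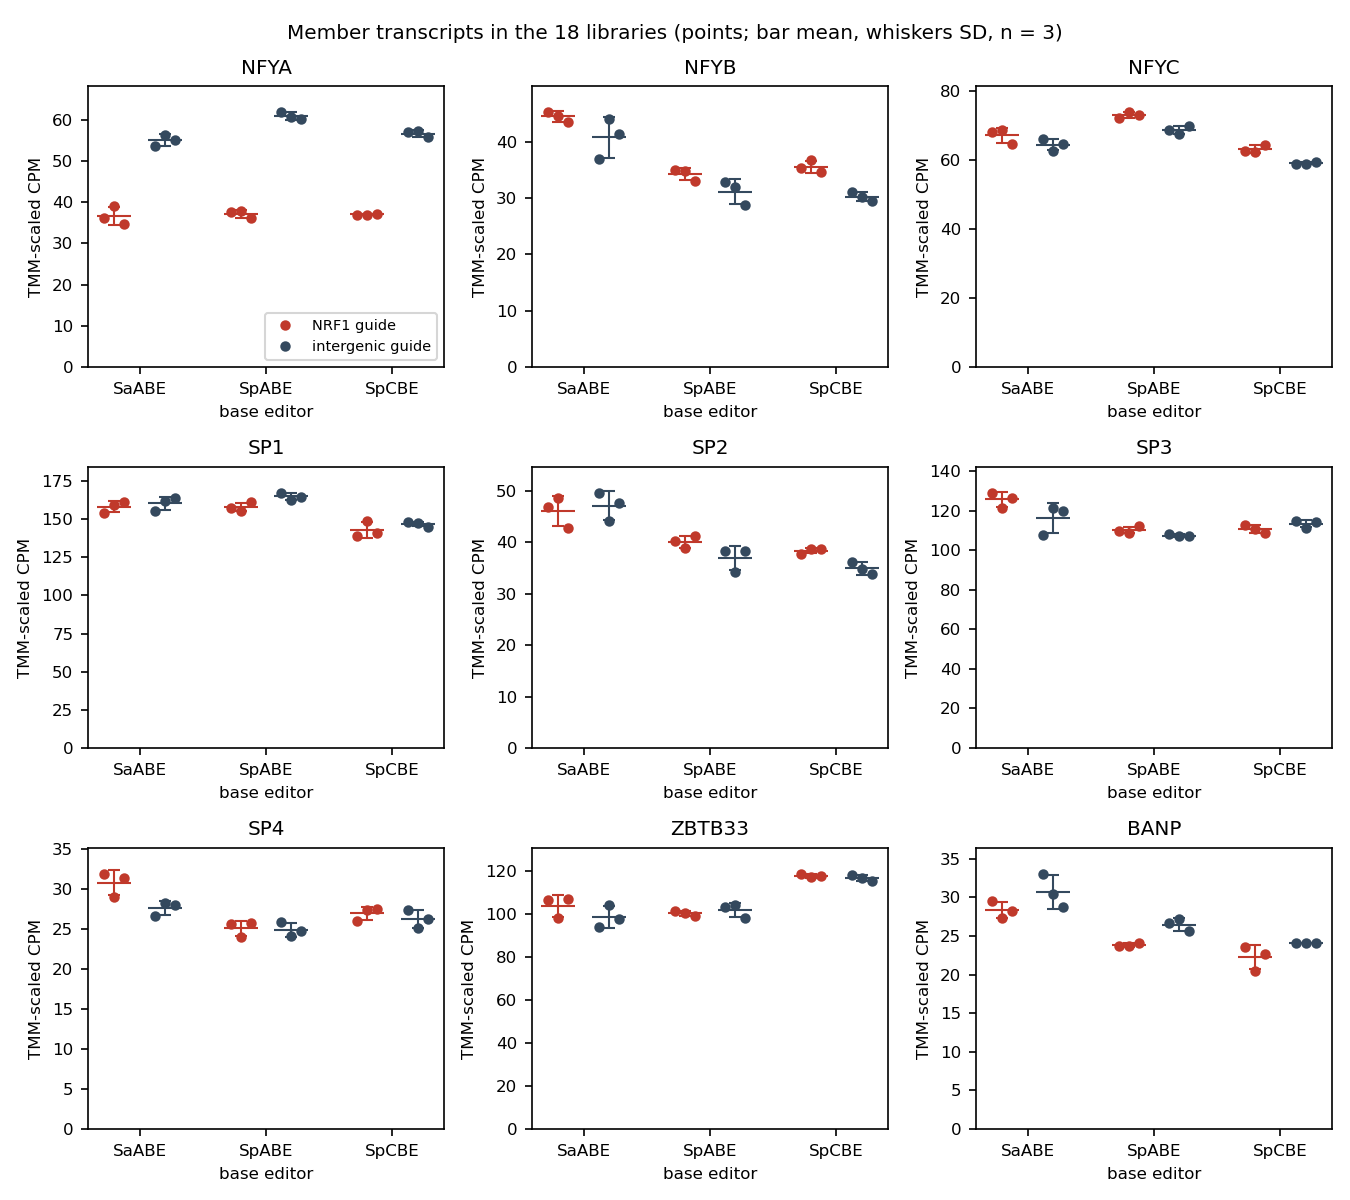
TMM-scaled CPM (vertical axis, starting at 0) of the 9 genes in the 18 libraries, by base editor (horizontal axis). Red points left are libraries with the NRF1 guide, dark points right those with the intergenic guide, the bar is the mean and the whiskers are the SD of 3 libraries. NFYA sits between 34.7 and 39.1 CPM with the NRF1 guide, below 53.6 to 62.0 CPM with the intergenic guide, and the points of every other gene overlap over all editors.

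The stretch before the start of NFYA is shown because it holds no exact match to CCAAT or GGGCGG on either strand. Only these exact letters were searched for NFY and the SP factors, so near matches were not counted. It covers the 250 bases up to the RefSeq start, which is also the GENCODE gene start, on the plus strand at chr6:41072724-41072973 (GRCh38.p14, RefSeq). Capitals mark the only match among the motifs searched before the start, a looser form of the NRF1 palindrome at -61 to -52, where -1 is the last base before the start. That pattern, which leaves 1 middle base free, was added to the search after this sequence had been read, so its presence here is a description only.
NFYA: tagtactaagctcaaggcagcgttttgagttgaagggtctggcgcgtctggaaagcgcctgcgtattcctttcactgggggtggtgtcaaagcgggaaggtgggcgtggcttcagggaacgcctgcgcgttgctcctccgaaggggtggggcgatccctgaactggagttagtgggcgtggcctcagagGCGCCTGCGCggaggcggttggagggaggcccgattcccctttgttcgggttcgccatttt
There was no GGGCGG from 250 bases before to 50 bases after the start on either strand, and the single CCAAT lay after the start, on the opposite strand, 45 to 49 bases downstream. Neither of the 2 stricter NRF1 patterns was found in the window of NFYA or in that of any other member with a RefSeq window.

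NFYB, the histone-fold subunit related to histone H2B, was slightly higher with the NRF1 guide. SaABE cells with the NRF1 guide had 45.4, 44.6 and 43.5 CPM, against 36.9, 44 and 41.4 CPM with the intergenic guide. In SpABE cells NFYB was at 34.9, 34.9 and 33 CPM with the NRF1 guide, against 32.8, 31.9 and 28.7 CPM with the intergenic guide. In SpCBE cells NFYB was at 35.3, 36.7 and 34.6 CPM with the NRF1 guide, against 31, 30.2 and 29.5 CPM with the intergenic guide. The guides overlapped in SaABE cells but not in SpABE or SpCBE cells, and SaABE cells were higher than both other editors whichever guide they carried. Over all editors NFYB had a log2 fold change of 0.16 (SE 0.033), with 0.13 in SaABE, 0.14 in SpABE and 0.23 in SpCBE cells. Without SaABE intergenic replicate 1 the SaABE value was 0.06.

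NFYC, the histone-fold partner of NFYB related to histone H2A, was the most abundant of the NFY subunits. SaABE cells with the NRF1 guide had 68.0, 68.7 and 64.5 CPM, against 65.9, 62.7 and 64.6 CPM with the intergenic guide. Values for NFYC in SpABE cells were 72.2, 74.0 and 73.1 CPM with the NRF1 guide, against 68.7, 67.6 and 69.9 CPM with the intergenic guide. Values for NFYC in SpCBE cells were 62.5, 62.2 and 64.4 CPM with the NRF1 guide, against 58.8, 58.9 and 59.3 CPM with the intergenic guide. The guides did not overlap in SpABE and SpCBE cells and overlapped in SaABE cells, where the lowest NRF1-guide library fell within the control range. Its log2 fold change was 0.08 over all editors (SE 0.020, 95% interval 0.04 to 0.12). NFYC shares 287 exon bases with the opposite-strand NFYC-AS1, which had 40 to 104 estimated counts per library.

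The upstream stretch of NFYC is shown because it carries, side by side, an element of its own complex and one read by another gene of this group. It covers 194 bases before the GENCODE gene start, -250 to -57 from the RefSeq start, on the plus strand at chr1:40691454-40691647 (GRCh38.p14, RefSeq), and lies inside an exon of NFYC-AS1. Capitals mark 2 GC boxes and, directly joined, a CCAAT at -98 to -94 and the CGCG element that BANP reads at -93 to -84.
NFYC: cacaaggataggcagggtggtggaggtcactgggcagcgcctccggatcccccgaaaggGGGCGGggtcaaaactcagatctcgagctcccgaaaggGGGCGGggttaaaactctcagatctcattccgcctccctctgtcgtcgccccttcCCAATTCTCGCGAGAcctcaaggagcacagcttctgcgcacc
The CGCG element was present in 0.424% of all RefSeq promoter windows of this length, and among the 8 members with a RefSeq window NFYC was the one that held it. NFYB is named only.

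The 3 subunits together gave a different balance with each guide, given here as a description only. NFYA was chosen for its fall, and each share is taken of the sum of all 3, so a lower NFYA share raises the others. NFYB and NFYC themselves had log2 fold changes of 0.16 and 0.08 over all editors. Computed per kilobase of exon, NFYA made up 23.8 ± 1.20% of the NFY subunit level with the NRF1 guide and 34.5 ± 2.11% with the intergenic guide (SD, n = 9 each). NFYB made up 31 ± 3.09% with the NRF1 guide and 25.8 ± 3.28% with the intergenic guide. NFYC made up 45.2 ± 2.61% with the NRF1 guide and 39.7 ± 1.79% with the intergenic guide. The NFYA shares did not overlap (22.1 to 25.3% with the NRF1 guide, 31.6 to 36.5% with the intergenic guide). The lowest NRF1-guide and the lowest control shares of NFYA were both found in SaABE cells. These are shares of RNA and say nothing of the protein complex.

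SP1 was the most highly counted GC-box factor and lay slightly lower with the NRF1 guide. SaABE cells with the NRF1 guide had 154, 159 and 161 CPM, against 155, 162 and 164 CPM with the intergenic guide. In SpABE cells SP1 was at 157, 156 and 161 CPM with the NRF1 guide, against 167, 163 and 164 CPM with the intergenic guide. In SpCBE cells SP1 was at 139, 149 and 141 CPM with the NRF1 guide, against 148, 147 and 145 CPM with the intergenic guide. Only the SpABE libraries separated by guide, and the SpCBE cells were lower than both adenine-editor groups with either guide. The log2 fold change over all editors was -0.04 (SE 0.018).

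The upstream stretch of SP1 is shown because it combines both elements, in one place within the same bases. It covers the 250 bases before the RefSeq start that matches the GENCODE gene start, on the plus strand at chr12:53379926-53380175 (GRCh38.p14, RefSeq). Capitals mark 3 CCAAT boxes, all on the opposite strand and so written ATTGG, and 4 GC boxes, one of them written CCGCCC. The CCAAT at -68 to -64 shares 2 bases with the GC box at -65 to -60.
SP1: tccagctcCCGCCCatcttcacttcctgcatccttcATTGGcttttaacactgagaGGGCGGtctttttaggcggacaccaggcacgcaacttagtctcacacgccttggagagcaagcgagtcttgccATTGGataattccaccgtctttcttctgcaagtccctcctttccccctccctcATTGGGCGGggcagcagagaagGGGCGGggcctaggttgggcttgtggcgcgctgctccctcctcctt
A second RefSeq start of SP1 further downstream had 10 GC boxes and no CCAAT in its window.

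SP2 had 46.7, 48.5 and 42.7 CPM in SaABE cells with the NRF1 guide, against 49.6, 44.1 and 47.6 CPM with the intergenic guide. SpABE cells with the NRF1 guide had 40.3, 38.8 and 41.1 CPM, against 38.2, 34.2 and 38.2 CPM with the intergenic guide. SpCBE cells with the NRF1 guide had 37.7, 38.7 and 38.7 CPM, against 36.1, 34.8 and 33.7 CPM with the intergenic guide. The libraries separated by guide, higher with the NRF1 guide, in SpABE and SpCBE cells, and overlapped in SaABE cells, where SP2 was highest with either guide. The log2 fold changes were -0.04 in SaABE, 0.12 in SpABE and 0.14 in SpCBE cells, and 0.07 (SE 0.034) over all editors. Without SaABE NRF1 replicate 3 the SaABE value was 0.02, and without SpABE intergenic replicate 2 the SpABE value was 0.07.

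The start of SP2 is shown because, although its product is a GC-box factor, it held more CCAAT boxes than any other member window. Over the whole window there were 8 CCAAT boxes and 2 GC boxes. The stretch printed is the 164 bases before the GENCODE gene start, -250 to -87 from the RefSeq start, on the plus strand at chr17:47895986-47896149 (GRCh38.p14, RefSeq). Capitals mark its 5 complete CCAAT boxes on either strand, the first 2 overlapping in the run CCAATTGG.
SP2: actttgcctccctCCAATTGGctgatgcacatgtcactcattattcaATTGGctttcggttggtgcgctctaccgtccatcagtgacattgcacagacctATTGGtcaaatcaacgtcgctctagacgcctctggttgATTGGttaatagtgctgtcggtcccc
The other CCAAT boxes and both GC boxes lay between -88 and -5.

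SP3 had 129, 121 and 126 CPM in SaABE cells with the NRF1 guide, against 108, 122 and 120 CPM with the intergenic guide. SpABE cells with the NRF1 guide had 110, 109 and 112 CPM, against 108, 107 and 107 CPM with the intergenic guide. SpCBE cells with the NRF1 guide had 113, 111 and 108 CPM, against 115, 111 and 114 CPM with the intergenic guide. One SaABE control library was low, and only the SpABE libraries separated by guide. For SP3 the log2 fold change was 0.11 in SaABE, 0.04 in SpABE and -0.03 in SpCBE cells, and without SaABE intergenic replicate 1 the SaABE value was 0.06. SP4, the lowest counted SP member, had 31.9, 29 and 31.4 CPM in SaABE cells with the NRF1 guide, against 26.6, 28.3 and 28 CPM with the intergenic guide. In SpABE and SpCBE cells SP4 ranged over 24.0 to 27.5 CPM with the NRF1 guide and over 24.1 to 27.4 CPM with the intergenic guide. SP4 therefore separated by guide in SaABE cells and overlapped in the others, with log2 fold changes of 0.16 in SaABE, 0.01 in SpABE and 0.04 in SpCBE cells. With 1 library left out the SP4 value ran from -0.01 (without SpABE intergenic replicate 2) to 0.04 (without SpABE NRF1 replicate 2) in SpABE cells, and from 0.01 (without SpCBE intergenic replicate 2) to 0.08 (without SpCBE intergenic replicate 1) in SpCBE cells. Among SP1 to SP4, per kilobase of exon, SP1 made up 45.3 ± 1.75% with the NRF1 guide and 47.1 ± 2.22% with the intergenic guide (SD, n = 9 each).

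ZBTB33 had 107, 98.0 and 107 CPM in SaABE cells with the NRF1 guide, against 94.2, 104 and 97.6 CPM with the intergenic guide. In SpABE cells ZBTB33 was at 102, 101 and 99.4 CPM with the NRF1 guide, against 103, 104 and 98.2 CPM with the intergenic guide. In SpCBE cells ZBTB33 was at 119, 117 and 118 CPM with the NRF1 guide, against 118, 117 and 116 CPM with the intergenic guide. The guides overlapped under all 3 editors, and SpCBE cells were above both adenine-editor groups. The log2 fold change over all editors was 0.02 (SE 0.023, 95% interval -0.02 to 0.07). BANP had 29.5, 27.3 and 28.2 CPM in SaABE cells with the NRF1 guide, against 33.1, 30.4 and 28.8 CPM with the intergenic guide. SpABE cells with the NRF1 guide had 23.7, 23.6 and 24.1 CPM of BANP, against 26.7, 27.2 and 25.6 CPM with the intergenic guide. SpCBE cells with the NRF1 guide had 23.6, 20.5 and 22.7 CPM of BANP, against 24.1, 24.1 and 24.0 CPM with the intergenic guide. BANP was lower with the NRF1 guide in all 3 editors, without overlap in SpABE and SpCBE cells. Its log2 fold change over all editors was -0.13 (SE 0.031), the second lowest of the 9. In SpCBE cells it was -0.11, and -0.05 without SpCBE NRF1 replicate 2. In SaABE cells it was -0.12, and -0.06 without SaABE intergenic replicate 1.

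The 30 bases before one RefSeq start of BANP are shown because, after NFYA, they hold the only other match to the looser NRF1 pattern among the member windows. They lie on the plus strand at chr16:87951404-87951433 (GRCh38.p14, RefSeq), 2190 bases downstream of the GENCODE gene start of BANP, and the match in capitals ends at the last base before the start.
BANP: gtcgcggggaggggctcgcgGCGCCTGCGC
The looser NRF1 pattern was present in 5.78% of all RefSeq promoter windows of the same length. The window at the GENCODE gene start of BANP did not contain it. The plot of motif positions shows all 14 member windows.

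**Figure D2:**
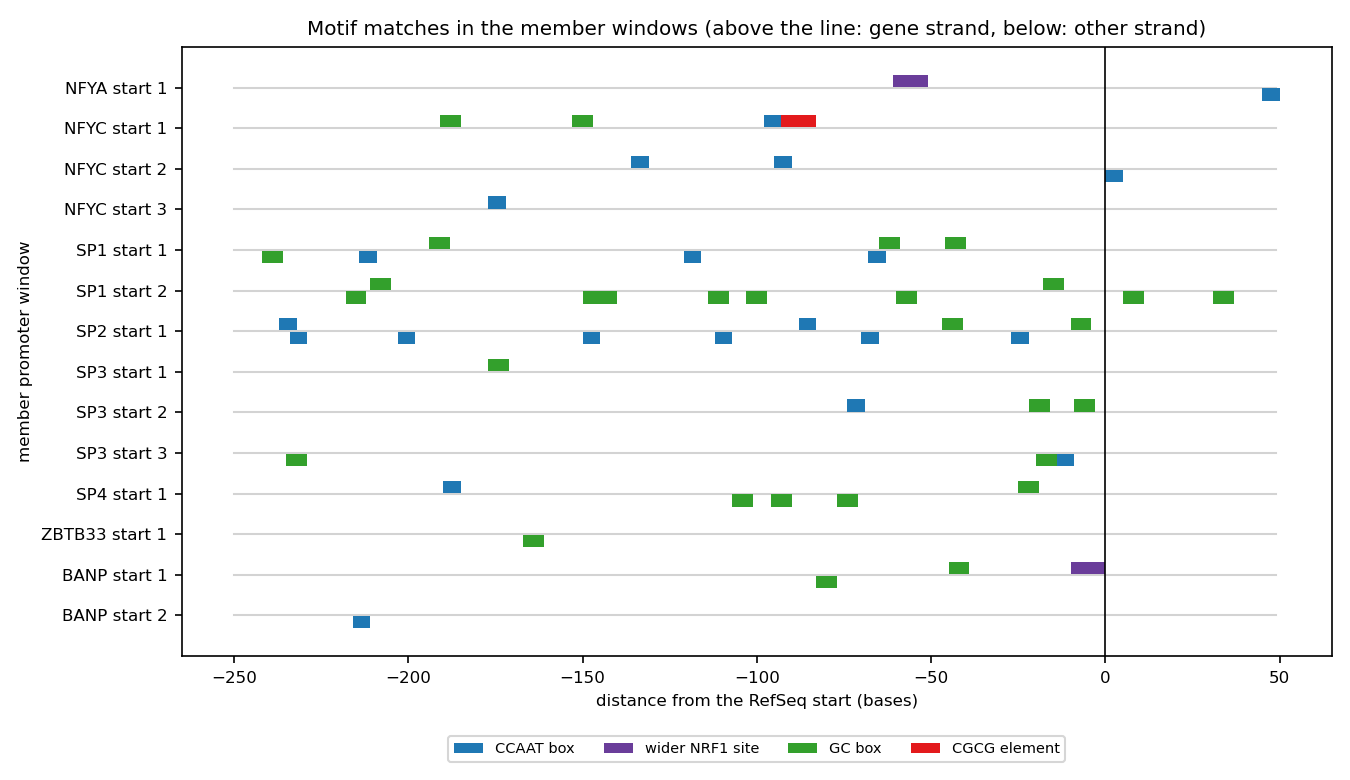
Positions of CCAAT boxes, GC boxes, the CGCG element and the looser NRF1 pattern in the 14 RefSeq windows of 8 members, as distance in bases from each start (horizontal axis, -250 to 50), one window per line. Boxes above a line are on the gene strand and boxes below it on the other strand. The looser NRF1 pattern appears once in NFYA and once in BANP, the CGCG element once in NFYC, and SP2 has the most CCAAT boxes.

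Across the 8 members with RefSeq windows, 7 held a CCAAT box (CCAAT or its complement) between 250 bases before and 50 after a start, and 6 held one in the 250 bases before it alone. A GC box was held by 7 of the 8. The shares over all RefSeq windows of that length were 34.6% for CCAAT and 45% for the GC box, and several members had more than one window, which raises their chance of a match. At the GENCODE gene starts, with 1 window a gene, 8 of 9 members held a CCAAT box against 35.3% of all 17626 tested genes with a window, and 7 of 9 held a GC box against 58.2%. NFYB held 8 GC boxes and no CCAAT box there. A match is a description of letters and not evidence of binding.

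Set against all genes, most members differed little between guides. Over all editors the median log2 fold change was 0.04 for the 9 members and 0.01 for all 17743 genes tested. Only NFYA passed both thresholds of the study's call rule (adjusted p below 0.05, log2 fold change beyond 0.5 in either direction), which 5.5% of all genes passed. Over all editors 4 of the 9 (NFYB and NFYC higher, NFYA and BANP lower) passed adjusted p under 0.05 alone, as did 39.4% of all genes. Within editors NFYA was again the member past both thresholds, beside 6.05% of genes in SaABE, 6.41% in SpABE and 4.45% in SpCBE cells. Over all libraries NFYA was the only member whose guides did not overlap, beside 6.7% of genes. Within editors the guides did not overlap for 2 members in SaABE (40% of genes), 7 in SpABE (44.5% of genes) and 5 in SpCBE cells (38.8% of genes). Since this contrast entered the choice of the genes, nothing is read from these counts.

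**Figure D3:**
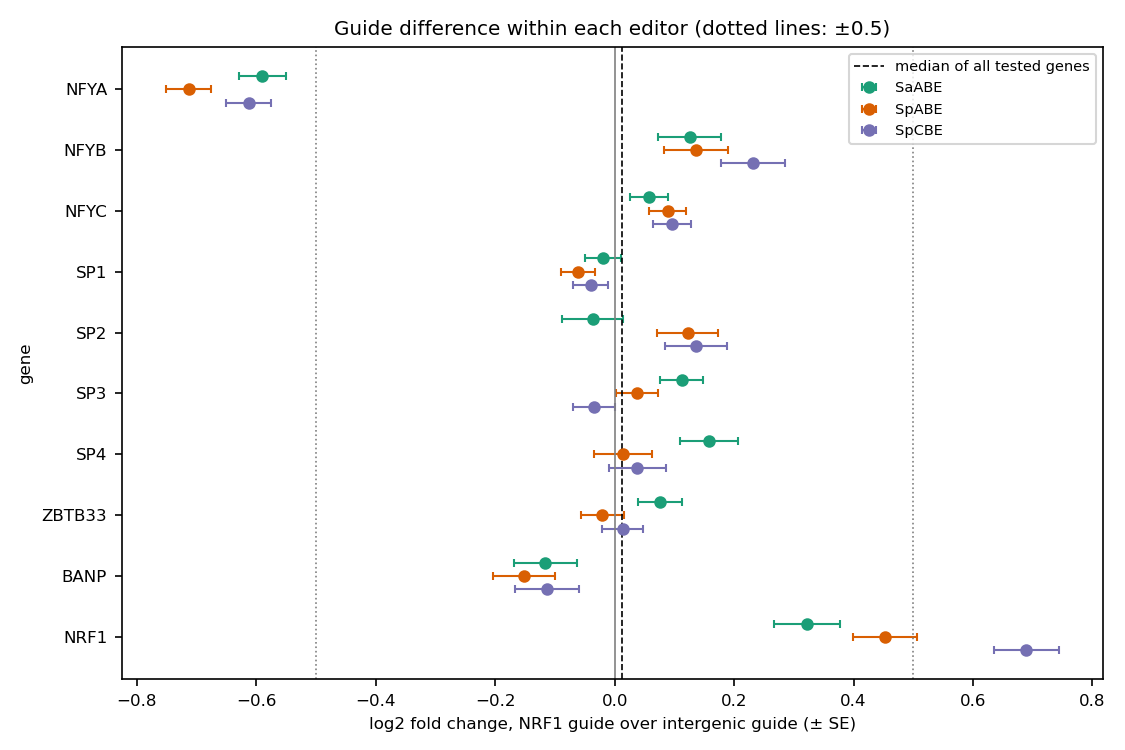
Log2 fold change of the NRF1 guide over the intergenic guide (horizontal axis, whiskers ± SE) for the 9 genes and NRF1, within SaABE, SpABE and SpCBE cells. Dotted lines mark ±0.5 and the dashed line the median of all tested genes over all editors (0.01). NFYA lies at -0.71 to -0.59, NRF1 at 0.32 to 0.69, and the other 8 genes between -0.15 and 0.23.

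Whether the guide effect differed between editors was not used to choose the genes and could be tested. No member passed adjusted p under 0.05 in any of the 3 differences, by the quasi-likelihood test of edgeR, adjusted over all genes by the Benjamini-Hochberg method. Of all genes, 11.7% passed for SaABE minus SpABE, 4.09% for SaABE minus SpCBE and 8.96% for SpABE minus SpCBE. At an unadjusted p under 0.05, 5 of the 27 member differences passed. DESeq2 also called none at adjusted p under 0.05. The NFYA effect was 0.12 less negative in SaABE than in SpABE cells (95% interval 0.02 to 0.23, adjusted p = 0.158), and differed by 0.02 between SaABE and SpCBE cells (-0.08 to 0.13, adjusted p = 0.881) and by -0.10 between SpABE and SpCBE cells (-0.20 to 0.00, adjusted p = 0.281). The smallest adjusted p belonged to SP3, whose effect was 0.15 higher in SaABE than in SpCBE cells (0.05 to 0.24, adjusted p = 0.106). Without SaABE intergenic replicate 2 the SP3 difference was 0.18 and passed (adjusted p = 0.034). SP2 was lower in SaABE by 0.16 against SpABE cells (adjusted p = 0.171) and by 0.17 against SpCBE cells (adjusted p = 0.198). The NRF1 transcript differed where the members did not pass: its effect was lower in SaABE than in SpCBE cells by 0.37 (SE 0.078, adjusted p = 0.00667).

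The members did differ between the control groups, which carry the same guide type, a different editor and possibly a different guide sequence. This comparison was also not used to choose the genes. Between SaABE and SpABE controls, 7 of 9 members passed adjusted p under 0.05, 5 higher and 2 lower in SaABE, beside 38.4% of all genes (19.3% higher, 19.1% lower). Between SaABE and SpCBE controls 6 passed, 5 higher and 1 lower, beside 40.6% of genes (20.1% higher, 20.6% lower). Between SpABE and SpCBE controls 5 passed, 4 higher and 1 lower in SpABE, beside 35.5% of genes (17.7% higher, 17.8% lower). The genes tested include many with far fewer counts than the members, and no share matched by count level was taken. The 3 comparisons use the same control groups and are not independent. No member reached an absolute log2 difference of 0.5, which with the adjusted p was met by 7.03%, 8.04% and 6.19% of genes in these 3 comparisons. The share of counts held by the 10 most abundant genes also moved with the editor (5.86 to 6.61% in SaABE, 4.59 to 5.17% in SpABE and 3.86 to 4.1% in SpCBE libraries), and its part in these differences was not tested.

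SP2, NFYB and BANP set SaABE controls apart from the others. SP2 averaged 47.1 ± 2.78 CPM in SaABE controls, against 36.9 ± 2.32 CPM in SpABE and 34.9 ± 1.19 CPM in SpCBE controls (SD, n = 3 each). It was higher in SaABE by 0.35 against SpABE (adjusted p = 5.88e-06) and by 0.43 against SpCBE (adjusted p = 3.25e-07), without overlap. NFYB averaged 40.8 ± 3.57 CPM in SaABE controls, against 31.1 ± 2.15 CPM in SpABE and 30.3 ± 0.751 CPM in SpCBE controls. It was higher in SaABE by 0.39 (adjusted p = 3.47e-06) and by 0.43 (adjusted p = 7.38e-07). BANP averaged 30.7 ± 2.19 CPM in SaABE controls, against 26.5 ± 0.807 CPM in SpABE and 24.1 ± 0.0523 CPM in SpCBE controls. BANP and NFYC were the members that passed in all 3 comparisons. BANP was higher in SaABE than in SpABE by 0.21 (adjusted p = 0.00202), higher in SaABE than in SpCBE by 0.35 (adjusted p = 9e-06), and higher in SpABE than in SpCBE by 0.14 (adjusted p = 0.0452). The last of these calls was lost with any 1 of SpABE intergenic replicates 1 and 2 or SpCBE intergenic replicates 1, 2 and 3 left out (adjusted p 0.0698 to 0.153) and by DESeq2 (adjusted p = 0.0626).

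NFYC and SP1 were lowest and ZBTB33 highest in SpCBE controls. NFYC averaged 64.4 ± 1.62 CPM in SaABE, 68.7 ± 1.15 CPM in SpABE and 59.0 ± 0.224 CPM in SpCBE controls, higher than in SpCBE by 0.13 in SaABE (adjusted p = 0.00301) and by 0.22 in SpABE (adjusted p = 7.57e-06). It was lower in SaABE than in SpABE by 0.09 (adjusted p = 0.0226), a call lost without SaABE intergenic replicate 2 (adjusted p = 0.099), SaABE intergenic replicate 3 (0.0506) or SpABE intergenic replicate 3 (0.0596). SP1 averaged 160 ± 4.41 CPM in SaABE, 165 ± 2.38 CPM in SpABE and 147 ± 1.5 CPM in SpCBE controls. It was higher than in SpCBE by 0.13 in SaABE (adjusted p = 0.00115) and by 0.17 in SpABE (adjusted p = 7.94e-05), while SaABE and SpABE did not separate (-0.04, 95% interval -0.10 to 0.02). ZBTB33 averaged 98.7 ± 5.07 CPM in SaABE, 102 ± 3.27 CPM in SpABE and 117 ± 1.29 CPM in SpCBE controls. It was lower than in SpCBE by 0.24 in SaABE (log2 difference -0.24, adjusted p = 7.09e-06) and by 0.20 in SpABE (-0.20, adjusted p = 0.000117).

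NFYA was highest in SpABE controls. It averaged 55.1 ± 1.40 CPM in SaABE, 60.9 ± 0.963 CPM in SpABE and 56.7 ± 0.790 CPM in SpCBE controls. It was lower in SaABE than in SpABE (-0.15, adjusted p = 0.00249) and higher in SpABE than in SpCBE (0.10, adjusted p = 0.0252), and it did not pass between SaABE and SpCBE (-0.04, 95% interval -0.11 to 0.03). The SpABE minus SpCBE call was lost without SpABE intergenic replicate 1 (adjusted p = 0.0871), SpABE intergenic replicate 2 (0.0529) or SpCBE intergenic replicate 3 (0.0599). Both were smaller than the guide difference of NFYA within any editor. SP3 was higher in SaABE than in SpABE by 0.11 (adjusted p = 0.0133), which was lost without SaABE intergenic replicate 2 (0.0935) or 3 (0.0803), and did not pass in the other comparisons. Without SaABE intergenic replicate 1, SP3 also passed between SaABE and SpCBE (0.09, adjusted p = 0.0235). SP4 was higher in SaABE than in SpABE by 0.15 (adjusted p = 0.0171). The SP4 call was lost without SaABE intergenic replicate 2 (0.0625) or 3 (0.0571) and without SpABE intergenic replicate 2 (0.0844) or 3 (0.0508), and with no filter on low counts (0.0846).

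**Figure D4:**
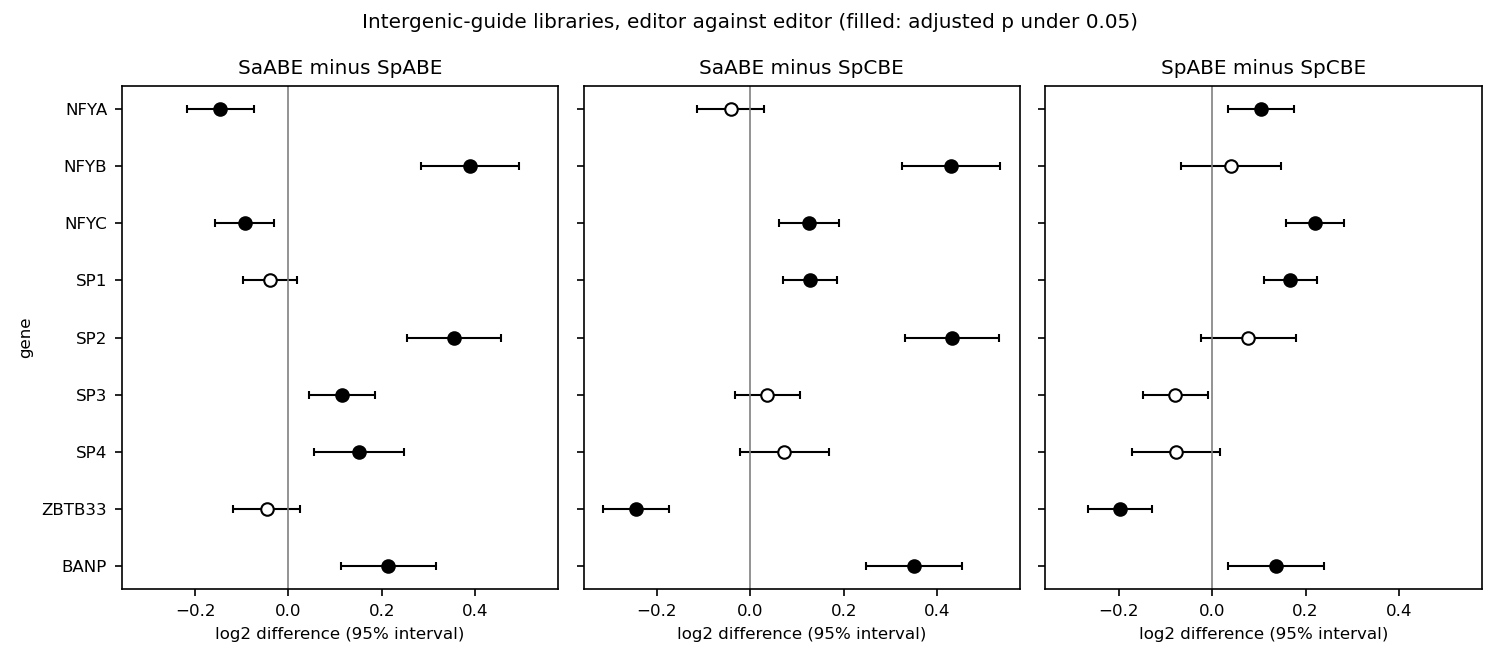
Log2 difference between the intergenic-guide groups of 2 editors (horizontal axis, whiskers 95% interval) for the 9 genes, in 3 panels. Filled points passed adjusted p under 0.05 by edgeR's quasi-likelihood test. SP2 and NFYB lie at 0.35 to 0.43 in both panels with SaABE, ZBTB33 lies at -0.24 and -0.20 in the panels against SpCBE, and no point reaches 0.5.

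Levels of different genes can be set side by side per kilobase of merged exon bases. Averaged over editors, the order with the NRF1 guide was ZBTB33 at 20.2 ± 1.59, SP1 at 18.9 ± 1.03, SP2 at 11.6 ± 1.08, NFYC at 11.3 ± 0.765, NFYB at 7.78 ± 1.00, SP3 at 6.84 ± 0.471, NFYA at 5.95 ± 0.198, SP4 at 4.43 ± 0.432 and BANP at 3.04 ± 0.355 CPM per kilobase (SD, n = 9). With the intergenic guide the order was the same except that NFYA, at 9.27 ± 0.450 CPM per kilobase, stood above NFYB at 6.95 ± 1.12 and SP3 at 6.65 ± 0.329 CPM per kilobase. Within editors some neighbours changed places. ZBTB33 stood above SP1 in SpCBE cells (22.2 and 17.7 CPM per kilobase with the NRF1 guide, 21.99 and 18.2 CPM per kilobase with the intergenic guide) and below it in SpABE cells (18.9 and 19.5 CPM per kilobase with the NRF1 guide, 19.2 and 20.4 CPM per kilobase with the intergenic guide). SP2 stood above NFYC in SaABE cells (12.9 and 11.2 CPM per kilobase with the NRF1 guide, 13.2 and 10.7 CPM per kilobase with the intergenic guide) and below it in SpABE cells (11.2 and 12.2 CPM per kilobase with the NRF1 guide, 10.3 and 11.5 CPM per kilobase with the intergenic guide). NFYB stood below SP3 in SpCBE controls, at 6.18 and 6.72 CPM per kilobase. With both guides ZBTB33 and SP1, SP2 and NFYC, and NFYB and SP3 were neighbours whose ranges overlapped. With the intergenic guide the ranges of NFYC and NFYA, NFYA and NFYB, and SP4 and BANP overlapped too. NFYA had the lowest level of the NFY subunits with the NRF1 guide and a middle one with the intergenic guide. Merged exons are longer than any one transcript, most of all for SP3 with 16892 bases, so these levels understate genes with many alternative exons.

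The genes whose pattern over the 18 libraries was most like that of a member were found by the root-mean-square difference of centred log2 CPM among 11179 genes. Most like NFYA were MAP7D3, a microtubule-associated protein (0.048 log2), CBX1, a heterochromatin protein (0.056), TUBGCP4 of the gamma-tubulin complex (0.059), VDAC3, a channel of the outer mitochondrial membrane (0.068), and LYRM2, a mitochondrial protein (0.070). The median over all genes was 0.355. Their log2 fold changes with the NRF1 guide ran from -0.72 for VDAC3 to -0.59 for LYRM2, close to that of NFYA, as the measure itself favours. The nearest genes were PTBP2 and RNF11 for NFYB, CAP1 and RBM4 for NFYC, PRRC2C and GPATCH8 for SP1, GFPT2 and CSNK1E for SP2, SH3GLB1 and YWHAZ for SP3, WTAP and BRAF for SP4, CDC27 for ZBTB33, and PHF2 and UBE2R2 for BANP.

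Other genes of these pathways were not used to choose the members, and their guide differences were tested over all editors by the same test of edgeR and the same adjustment. The lists themselves were written with earlier results of these data known, so the counts per list are a description. Beside each count stand the 20.6% of all genes that were higher and the 18.8% that were lower at adjusted p under 0.05. Of 19 other SP and KLF factors tested, which share the GC-box type of zinc finger, 8 rose, 1 fell and 10 did not pass, with a median log2 fold change of 0.12 and none past 0.5. KLF5 averaged 59.2 ± 9.77 CPM with the NRF1 guide and 46.3 ± 2.22 CPM with the intergenic guide (log2 fold change 0.34, adjusted p = 2.67e-05). KLF10 rose by 0.28 and SP9 by 0.21, and KLF7 fell by 0.27. In SpCBE cells KLF10 was not higher, at 59.3 CPM with the NRF1 guide, against 59.8 CPM with the intergenic guide. KLF10 was at 76.7 CPM in SaABE cells with the NRF1 guide, against 58.9 CPM with the intergenic guide. For SpABE cells the KLF10 values were 72.2 CPM with the NRF1 guide and 52.4 CPM with the intergenic guide. KLF5 was at 71.5 CPM in SpABE cells with the NRF1 guide, against 45.7 CPM with the intergenic guide, and at 49.9 CPM in SpCBE cells with the NRF1 guide, against 47.3 CPM with the intergenic guide.

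Of 15 other CCAAT-box factors and histone-fold proteins tested, 4 rose, 4 fell and 7 did not pass, with a median of 0.04. The histone-fold protein CHRAC1, of the CHRAC chromatin remodelling complex, averaged 25.5 ± 1.35 CPM with the NRF1 guide and 42.2 ± 2.09 CPM with the intergenic guide (log2 fold change -0.73, adjusted p = 3.25e-17). POLE4, a histone-fold subunit of DNA polymerase epsilon, averaged 21.9 ± 0.887 CPM with the NRF1 guide and 27.3 ± 1.52 CPM with the intergenic guide (-0.32, adjusted p = 3.82e-09). Its usual partner POLE3 rose by 0.06 (adjusted p = 0.0125). YBX1, a cold-shock protein first described at Y-box promoters, rose by 0.18, and NFIX, of the nuclear factor I family, fell by 0.20. None of the CEBP genes tested passed (adjusted p 0.0755 to 0.768).

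Of 26 other general promoter factors, 11 rose, 4 fell and 11 did not pass, with a median of 0.04 and none past 0.5. MYC averaged 79.98 ± 10.6 CPM with the NRF1 guide and 68.8 ± 12.7 CPM with the intergenic guide (0.23, adjusted p = 2.62e-07). The ETS factor ELK4 rose by 0.24, the ZNF143 relative ZNF76 by 0.25 and the E-box factor USF1 by 0.16. Of 14 methyl-CpG readers and ZBTB33 partners, 3 rose, 5 fell and 6 did not pass, with a median of -0.03. UHRF1, which reads hemimethylated CpG and recruits the maintenance DNA methyltransferase, averaged 136 ± 9.43 CPM with the NRF1 guide and 185 ± 8.24 CPM with the intergenic guide (-0.44, adjusted p = 1.19e-10). MBD4, a methyl-CpG binding glycosylase, averaged 23.4 ± 2.02 CPM with the NRF1 guide and 30.5 ± 2.18 CPM with the intergenic guide (-0.38, adjusted p = 1.07e-10). GPS2 of the NCOR corepressor rose by 0.19, while NCOR1, a known ZBTB33 partner, was at a log2 fold change of -0.0034 and CTNND1, the catenin that binds ZBTB33, at 0.01, neither of which passed.

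Of 17 coactivators and corepressors of SP1 and NFY, 6 rose, 4 fell and 7 did not pass, with a median of 0.06. KAT2A, the acetyltransferase of SAGA, averaged 65.6 ± 2.69 CPM with the NRF1 guide and 78.6 ± 4.20 CPM with the intergenic guide (-0.26, adjusted p = 5.05e-09). The Mediator subunits MED26 and MED23 rose by 0.17 and 0.13, and SIN3A, a scaffold of histone deacetylases, rose by 0.08. Of 23 textbook NFY targets, 9 rose, 4 fell and 10 did not pass, with a median of 0.02 beside 0.01 for all genes and none past 0.5. The smallest p-values belonged to SQLE of sterol synthesis (0.16, adjusted p = 1.27e-06), the drug exporter ABCB1 (0.24, adjusted p = 4.24e-05), cyclin A2 (CCNA2, 0.11, adjusted p = 7.01e-05) and RRM2 of ribonucleotide reductase (0.14, adjusted p = 0.00018), all of them higher with the NRF1 guide. The chaperone HSPA5, a gene with several CCAAT boxes, averaged 935 ± 92.7 CPM with the NRF1 guide and 934 ± 60.4 CPM with the intergenic guide (log2 fold change -0.0015, adjusted p = 0.978). Of 17 textbook SP1 targets tested, 6 rose, 4 fell and 7 did not pass, with a median of 0.05. Thymidylate synthase (TYMS) fell by 0.20 (adjusted p = 1.72e-09) and BRCA1 by 0.24 (adjusted p = 2.42e-09), while ODC1 rose by 0.18 and CDKN1A by 0.18. POLE3, NCOR1, CTNND1 and HSPA5 were singled out after their values were seen.

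Genes were also grouped by the elements in their own promoter window at the GENCODE gene start, as a description. The 6225 tested genes with a CCAAT box had a median log2 fold change of 0.03, with 1.08% called higher and 3.44% called lower with the NRF1 guide. The 10256 genes with a GC box had a median of 0.01, with 0.965% called higher and 4.21% lower. The 115 genes with the CGCG element had a median of 0.06, with 0 called higher and 4 called lower. All 17626 genes with a window had a median of 0.01, with 1.13% called higher and 4.37% called lower. By adjusted p alone, 40.9% of the genes with the CGCG element were higher and 13.9% lower, 23.7% of those with a CCAAT box were higher and 15.7% lower, and 22.2% of those with a GC box were higher and 20.2% lower, beside 20.7% higher and 18.9% lower among all genes with a window. Of the genes with a stricter NRF1 pattern 10.5% were higher and 53.5% lower by adjusted p alone. The 707 genes with a stricter NRF1 pattern had a median of -0.14, with 0.99% called higher and 17.7% called lower. The 1472 genes with the looser NRF1 pattern, among them NFYA, had a median of -0.13, with 0.883% called higher and 17.4% called lower. That pattern was added after the NFYA sequence had been read, so nothing is read from the place of NFYA in this class. Classes overlap, since a promoter can hold several elements.

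**Figure D5:**
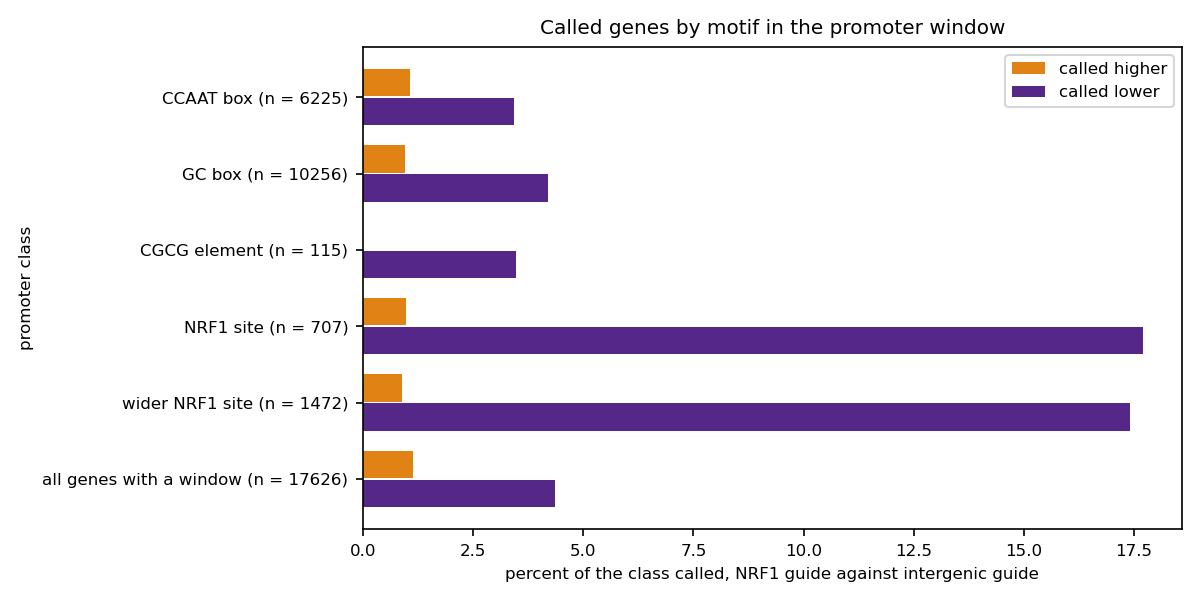
Percent of genes called higher (orange) or lower (purple) with the NRF1 guide than with the intergenic guide (horizontal axis, starting at 0), by the element found in the promoter window, with the number of genes in each class. The CCAAT, GC-box and CGCG classes show 3.44 to 4.21% called lower, near the 4.37% of all genes, and both NRF1 classes show 17.4 to 17.7%.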

How the data were processed

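RNA of HEK293T cells was taken in 6 groups of 3 libraries and sequenced as stranded poly(A) libraries. According to the submitters' processing notes, the authors used cutadapt 1.18, STAR 2.7.0f and the hg38 genome, and DESeq2 1.46.0. For the counting, no source used here gives the tool or the strand setting. The deposited values are estimated counts per gene with no normalization, of which 19.63% of the values above 0 were not whole, and they were rounded. Another 18 columns of the table belonged to no sample of this design and were not used. Groups came from the sample titles. The labels number the replicates without saying that they were separate transfections, so p-values cover only the spread among libraries, and that spread may be technical. All replicate pairs differed by more than sampling noise (chi-square per degree of freedom 1.99 to 6.74). The highest value belonged to SaABE intergenic replicates 1 and 2, and the next, 4.68, to SpABE intergenic replicates 1 and 3.

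Genes were kept by filterByExpr over the 6 groups (17743 of 58870), scaled by TMM and tested with edgeR 4.0.16 (quasi-likelihood test, R 4.3.3), with Benjamini-Hochberg adjustment over all genes. The comparison over all editors had editor as an additive term, and all other contrasts came from 1 fit of 6 group means. A gene was called at adjusted p below 0.05 with a log2 fold change beyond 0.5 in either direction. The script was tested on simulated data. The 9 genes, the gene lists and the tests were chosen with earlier results of these data known. Genes named from a list were up to 4 with the smallest p over all editors. Some genes that these rules or lists hold are not reported here. The genes most like a member were 5 for NFYA and 2 for each other member (1 printed for ZBTB33), among genes averaging 5 CPM or more (log2 CPM with a prior count of 2). Promoter windows ran from 250 bases before to 50 after a start, on both strands. RefSeq windows (GRCh38.p14) matched 8 of the 9 members but under 80% of tested genes, so a check of motif classes on them is void. Classes were taken instead from hg38 around GENCODE 44 gene starts (99.42% of tested genes), an alternative chosen after seeing the data. The deposited counts were aligned to the same genome build. Alternatives were DESeq2's size factors, DESeq2 1.42.0, other filters on low counts, the replicate block, no editor term, each editor alone and each library left out.

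Deviations from group means over 8218 genes correlated between same-numbered SpABE libraries at 0.17, 0.138 and 0.137, between SaABE libraries at -0.41, -0.374 and -0.0312 and between SpCBE libraries at 0.0321, 0.042 and 0.115. By the rule of over 0.1 in every pair, the numbers paired the libraries in SpABE cells alone, from the data and not from the labels. Between differently numbered libraries the correlation reached 0.366 and 0.395 for SaABE NRF1 replicates 1 and 2. It was at most 0.0423 in SpABE and 0.0864 in SpCBE cells. SaABE libraries may thus share structure that their numbers do not follow, which was not tested.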

Additional observations from a re-analysis of the deposited data

Results flagged for a closer look

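The effect of the NRF1 guide on the NRF1 transcript differed between editors, which drew attention because the difference itself passed its test. The log2 fold change of NRF1 was 0.32 in SaABE cells and 0.69 in SpCBE cells, a difference of -0.37 (SE 0.078, 95% interval -0.52 to -0.22, quasi-likelihood test of edgeR, Benjamini-Hochberg adjusted p = 0.00667), beside 4.09% of all genes that passed in this difference. With the NRF1 guide NRF1 averaged 40.2 ± 0.820 CPM in SaABE and 40.5 ± 2.93 CPM in SpCBE cells, and with the intergenic guide 32.2 ± 0.808 CPM in SaABE and 25.1 ± 0.810 CPM in SpCBE cells (SD, n = 3 each). The SaABE and SpCBE libraries with the NRF1 guide were therefore at nearly the same level, and their controls were not. For the 9 promoter factors, no difference of this kind passed.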

How the results depend on the processing

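No value past the threshold changed its direction under any alternative. Of 100 log2 values, 12 changed sign, none of them past adjusted p under 0.05 and none over 0.04 in size, among them the SP2 difference in SaABE cells (-0.04, and 0.02 without SaABE NRF1 replicate 3), the SP4 difference in SpABE cells (0.01, and -0.01 without SpABE intergenic replicate 2) and the NFYA effect difference SaABE minus SpCBE (0.02, and -0.02 without SaABE NRF1 replicate 2). Counts of called genes stayed within 1.5 times the main count except for SaABE minus SpABE effects without a filter on low counts (420, against 277), SaABE minus SpCBE effects without that filter (219, against 109) and SpABE minus SpCBE controls with CPM of at least 1 in 9 libraries (715, against 1098), where fewer or more genes were tested. With 1 library left out, called genes over all editors ranged from 952 to 991. The log2 fold change of NFYA over all editors ranged from -0.66 to -0.63 over 24 alternatives. Of the control differences, 23 alternative values lost their call and 1 gained one, and 7 values gained a call among differences of effects, those of members standing beside the results above. The NRF1 difference SpABE minus SpCBE was -0.24 (adjusted p = 0.0559) and passed with the replicate block (-0.24, adjusted p = 0.0329), which changed no call of a member in a tested comparison. With the block, 923 genes were called over all editors, against 976. In SaABE and SpCBE cells the same-numbered libraries were not paired by the rule of over 0.1 in every pair. DESeq2's size factors moved the median of all genes by at most 0.010 (log2). A CCAAT box was held by 7 of 8 members, and by 6 in the 250 bases before the start alone. Members had 692 estimated counts or more in each library, and counting error and the spread between libraries were not told apart.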

Other observations

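The textbook NFY targets can be set beside NFYA itself. NFYA transcripts were at a log2 fold change of -0.64, while the 23 textbook NFY targets had a median of 0.02 and ranged from -0.16 for E2F1 to 0.24 for ABCB1. The cyclins CCNA2 (0.11) and CCNB2 (0.10) rose, CCNB1 (-0.02) did not pass, and the cell-cycle kinase CDK1 (-0.10) and the phosphatase CDC25B (-0.07) fell. CDK1 was not lower in SaABE cells, at 124.6 CPM with the NRF1 guide, against 122.7 CPM with the intergenic guide. E2F1 was not lower in SpCBE cells, at 65.96 CPM with the NRF1 guide, against 65.2 CPM with the intergenic guide. Under the other editors both genes were lower with the NRF1 guide. Of the sterol-synthesis genes in that list, SQLE (0.16), HMGCS1 (0.10) and FDPS (0.09) rose. XBP1 (0.18) and DDIT3 (0.19), transcription factors of the unfolded protein response, rose as well, while the chaperone HSPA5 (-0.0015) did not pass. DDIT3 was at 100.4 CPM in SaABE cells with the NRF1 guide, against 87.7 CPM with the intergenic guide. It was at 69.4 CPM in SpABE cells with the NRF1 guide, against 51.8 CPM with the intergenic guide, and at 35.8 CPM in SpCBE cells with the NRF1 guide, against 37.5 CPM with the intergenic guide. These genes beyond the 4 of each list were named after their values were seen and are no group fixed or tested as such, and the libraries hold RNA 72 h after transfection at a single time.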
